A study of Mus musculus with 20 samples.

Results

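The genes described here are 45 genes of the lysosome and its proton pump: 7 subunits of the membrane sector of the vacuolar ATPase (V0), 8 subunits of its catalytic sector (V1), 2 accessory proteins of the pump, 10 cathepsins, 11 other hydrolases and their cofactors, 4 proteins of the lysosomal membrane and the 3 transcription factors Tfeb, Tfe3 and Mitf. They were chosen by gene name for these roles, among 37074 gene names on the array. The choice of these genes, and of all lists below, was made with earlier results of these data known. A probe was tested when the scanner software called its signal well above background on 6 or more arrays, and 25618 gene names had such a probe. All 45 genes were among them, and for each of them the probe used exceeded background on all 20 arrays.

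Lysosomes are the acidic compartments in which cells break down proteins, lipids and sugars taken up from outside or delivered by autophagy. The vacuolar ATPase pumps protons into them: the V1 sector splits ATP in the cytosol and the V0 sector carries the protons across the membrane. Tfeb, Tfe3 and Mitf are related transcription factors known to switch on many lysosomal genes through a short promoter motif. In adipose tissue, macrophages around dying fat cells are known for a large lysosomal compartment.

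Expression was measured in visceral adipose tissue, taken from the epididymal area, of 20 male C57bl/6J mice of the F3 generation, with 1 Agilent array of 1 colour per mouse. The mice were bred for 3 generations in lineages that each received its own oil. The Ref group (n = 6) came from the control lineage, supplemented with a sunflower oil rich in oleic acid, and ate a low-fat reference diet. The HFoleic group (n = 6) came from the same control lineage and ate a high-fat, high-sucrose diet. The HFepa group (n = 8) ate that high-fat diet too and came from the omega 3 lineage, supplemented with a fish oil rich in eicosapentaenoic acid (EPA). No group combined the omega 3 lineage with the low-fat diet, so an effect of the lineage alone cannot be told apart from its effect under the high-fat diet. Whole tissue was used, so more cells of a type and more RNA per cell cannot be told apart.

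Levels are log2 intensities after quantile normalization. A level holds for 1 probe and is not compared between genes. Each gene is given by its brightest tested probe, as the mean over the arrays. A gene is called changed when its adjusted p is under 0.05 in limma, whose p-values were adjusted by Benjamini and Hochberg's method over the 39390 probes tested. Median raw intensities of the arrays ranged from 83 to 114 and between 66.1% and 71.9% of their spots were well above background. The arrays lie on 3 slides, each with mice of every group. The comparisons HFoleic vs. Ref and HFepa vs. Ref share the same 6 Ref arrays.

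Short stretches of promoters are shown because the motif searched for in all of them, the E-box of Tfeb, Tfe3 and Mitf, was common among these genes whether or not they changed. The sequences are from RefSeq on GRCm38.p6 and run 5′ to 3′ on the strand of the gene. Capitals mark the motif, TCACGTGA or its core CACGTG, which read the same on both strands, and every TCACGTGA holds a CACGTG.
Ctsd, chr7:142387895-142388077, minus strand: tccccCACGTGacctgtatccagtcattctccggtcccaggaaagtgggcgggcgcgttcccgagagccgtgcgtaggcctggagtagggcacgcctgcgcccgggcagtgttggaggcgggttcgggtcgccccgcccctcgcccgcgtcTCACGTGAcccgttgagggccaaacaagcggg
Atp6v1a, chr16:44139360-44139415, minus strand: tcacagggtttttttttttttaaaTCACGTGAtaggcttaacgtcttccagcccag
Lamp1, chr8:13159076-13159175, plus strand: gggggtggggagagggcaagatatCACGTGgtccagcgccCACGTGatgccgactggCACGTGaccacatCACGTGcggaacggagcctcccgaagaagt
Atp6v0d1, chr8:105566040-105566092, minus strand: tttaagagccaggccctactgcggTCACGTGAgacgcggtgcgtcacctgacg
Mcoln1, chr8:3500424-3500504, plus strand: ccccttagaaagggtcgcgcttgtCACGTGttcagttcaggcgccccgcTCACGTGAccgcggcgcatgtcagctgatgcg
Ctsd, Atp6v1a and Lamp1 were called higher in the HFoleic group, whereas Atp6v0d1 and Mcoln1 were not called. Each window ran from 250 bases before to 50 bases after a transcription start, and 36 of the 45 genes had one. CACGTG was found in 12 of these 36 genes (33.3%) and in 8.09% of the 27025 genes with a window. TCACGTGA was found in 6 of the 36 (16.7%) and in 1.12% of all genes. Counted by window of 300 bases, 7.15% of all windows held CACGTG and 0.974% held TCACGTGA. The 6 genes with TCACGTGA were Atp6v0d1, Atp6v0e, Atp6v1a, Ctsa, Ctsd and Mcoln1. Of the other 6 genes, Lamp1 held 4 copies of CACGTG, Atp6v0b 2, and Ctsf, Ctsl, Gaa and Glb1 1 each. Ctsd and Mcoln1 each held 1 copy of CACGTG besides the one inside TCACGTGA, and Ctsa held TCACGTGA 2 times. Among the genes called higher in HFoleic vs. Ref, 7 of 23 held CACGTG and 3 of 23 held TCACGTGA, and among those not called the counts were 5 of 13 and 3 of 13. A match of letters is a description of the sequence, and binding was not measured. Without a window in the table used were Atp6v0a2, Atp6v0d2, Atp6v1b2, Atp6v1c1, Atp6v1g1, Atp6v1h, Ctsb, Ctsh and Asah1.

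Under the high-fat diet in the control lineage, the lysosomal genes rose as a broad group. In HFoleic vs. Ref, 30 of the 45 genes (66.7%) were called higher, none was called lower and 15 were not called (at an unadjusted p under 0.05, limma found 31 higher and 2 lower, beside 19.3% and 22.9% of all genes). Over all 25618 genes tested, 31.8% were called in this comparison, 15.2% higher and 16.7% lower. The median log2 fold change of the 45 genes was 0.42, against -0.04 for all genes. Every HFoleic mouse was above every Ref mouse for 21 of the 45 genes, and for 6.92% of all genes. Since the 45 genes were chosen with earlier results of these data known, these shares are a description. The genes called higher were 12 of the 17 pump genes, 7 of 10 cathepsins, 9 of 11 other hydrolases and 2 of 4 membrane proteins, and 0 of the 3 transcription factors.

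In the HFepa group the same genes had values between those of the other groups on average, and none passed the test against either. For HFepa vs. Ref, 0 of 45 genes were called by limma, where 2.46% of all genes were called (1.03% higher and 1.42% lower), and the smallest adjusted p was 0.0821, for Atp6v0d2. At an unadjusted p under 0.05, 16 were higher and 2 lower, beside 10% and 11.5% of all genes. The median log2 fold change was 0.16, against -0.02 for all genes. For HFepa vs. HFoleic, 0 of 45 genes were called, where 0% of all genes were called (0% in either direction), and the smallest adjusted p was 0.117, for Lamp1. At an unadjusted p under 0.05, 24 of the 45 were lower and 0 higher, beside 10% and 10.8% of all genes. The median log2 fold change was -0.23, against 0.01 for all genes. Both counts, and those over all genes, changed when single mice were left out. Without HFepa mouse 1, 18 of the 45 genes were called lower in HFepa vs. HFoleic, where 3.1% of all genes were called higher and 4.62% lower. Mouse 1 had the highest median level of the 45 genes in its group. Leaving out any other single HFepa mouse gave no call among the 45 genes in that comparison. Without HFoleic mouse 1, 1 gene (Lamp1) was called lower in that comparison, beside 1.92% of all genes. Without HFepa mouse 3, 3 genes (Atp6v0d2, Ctss and Glb1) were called higher in HFepa vs. Ref, beside 3.41% of all genes. Without Ref mouse 7, 1 gene (Atp6v0e) was called higher there, beside 2.42%.

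**Figure D1:**
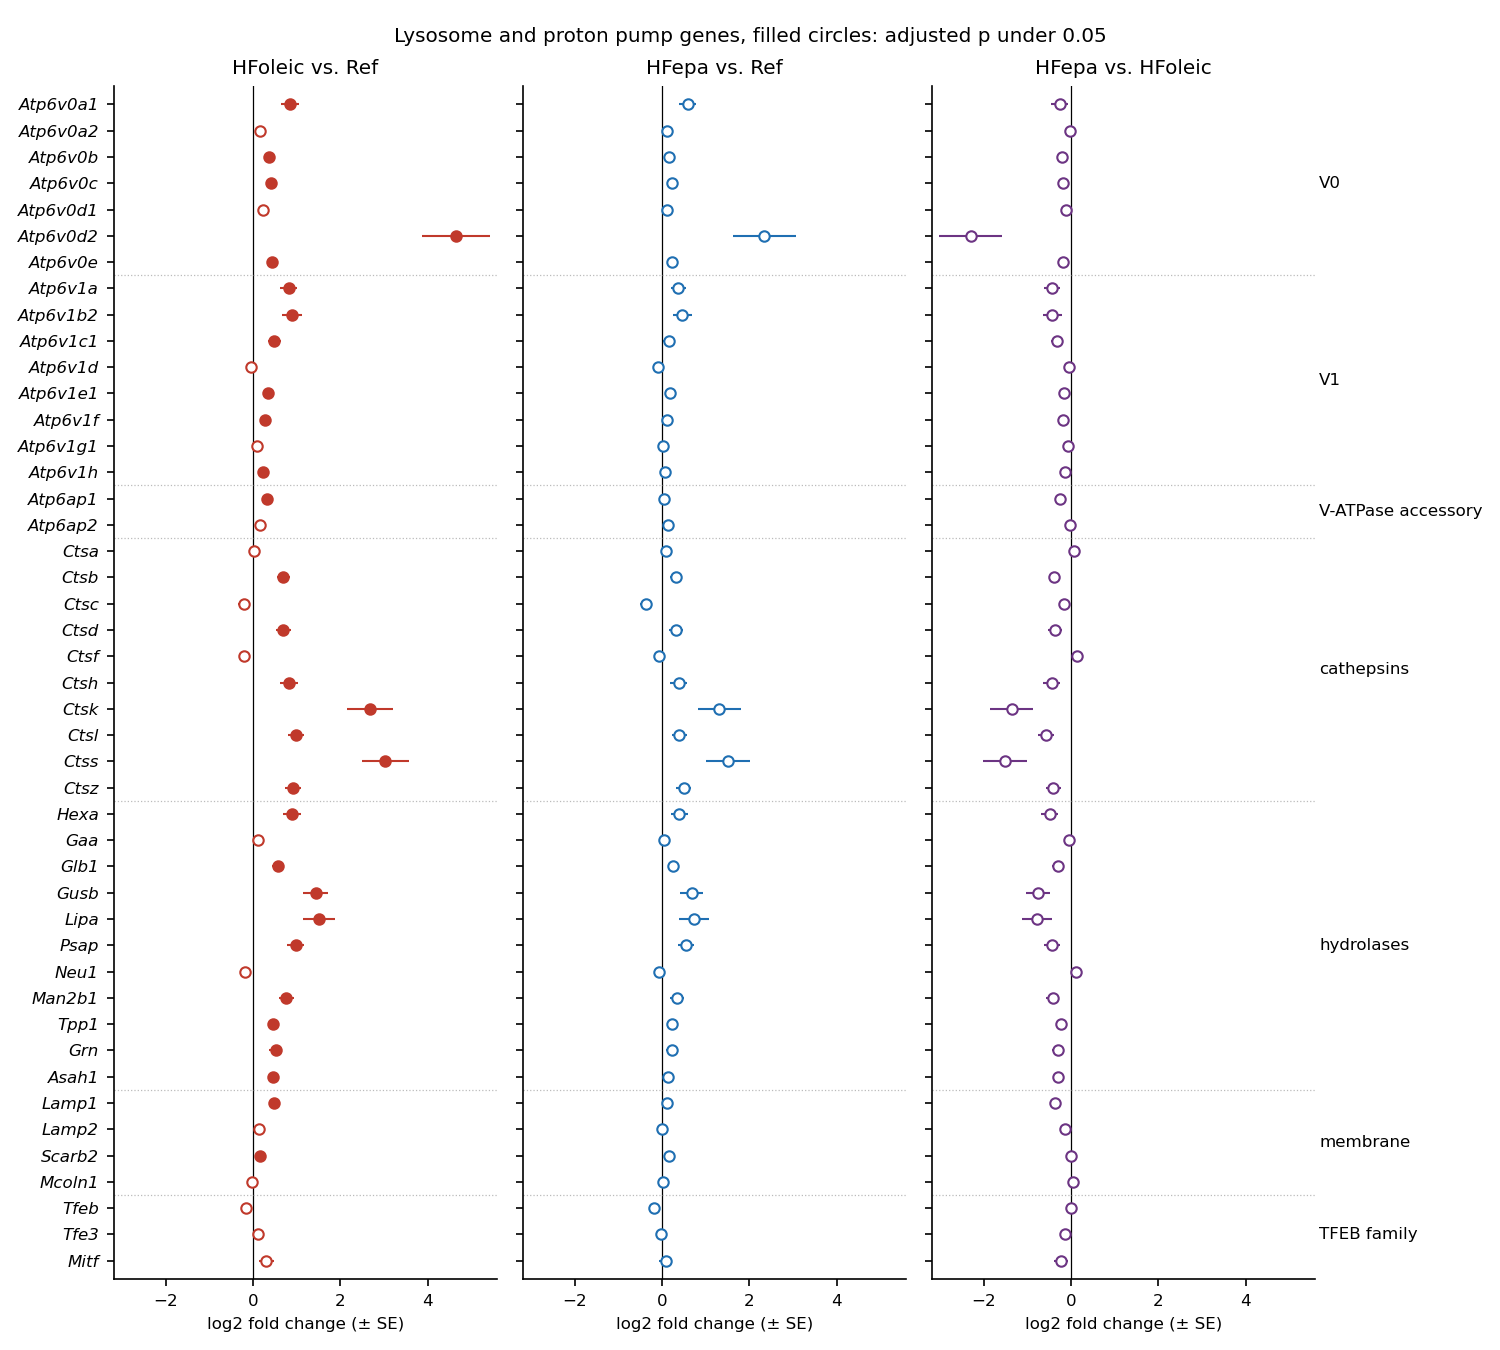
Log2 fold change (x axis, with SE bars) of the 45 genes (y axis, grouped by role) in the 3 comparisons, with filled circles for an adjusted p under 0.05. Filled circles are found in HFoleic vs. Ref, where there are 30, all right of 0, and Atp6v0d2 at 4.66 is farthest right.

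The membrane sector of the pump held the largest change of all 45 genes. Atp6v0d2 encodes the d2 isoform of the V0 stalk, known from osteoclasts and other macrophage-lineage cells. In the Ref group its level was 6.46 at the lowest, 6.68 at the median and 7.69 at the highest. In the HFoleic group these values were 10.14, 11.72 and 12.42, and in the HFepa group 7.12, 8.49 and 12.71. All 6 HFoleic mice were above all 6 Ref mice, whereas the HFepa mice spread from the Ref range to above the highest HFoleic mouse. Atp6v0d2 was 25.2-fold higher in HFoleic vs. Ref (log2 fold change 4.66 ± 0.77 (SE), limma adjusted p = 0.000495). Its log2 fold change was 2.35 ± 0.72 in HFepa vs. Ref (adjusted p = 0.0821) and -2.31 ± 0.72 in HFepa vs. HFoleic (adjusted p = 0.128). Without HFepa mouse 1 the latter was -2.81 and was called, and without HFepa mouse 3 the former was 2.65 and was called.

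Atp6v0d2 was read by 2 probes, and both are shown because they lie apart in the gene and moved in the same direction. Both are written as on the array, with their mm9 coordinates.
Brighter probe, chr4:19805367-19805426, minus strand: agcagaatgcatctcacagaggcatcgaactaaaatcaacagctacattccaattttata
Other probe, chr4:19837769-19837828, minus strand: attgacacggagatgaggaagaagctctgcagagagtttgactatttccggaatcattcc
With the other probe, the log2 fold change was 3.26 ± 0.60 for HFoleic vs. Ref (adjusted p = 0.000876), 1.49 in HFepa vs. Ref and -1.77 in HFepa vs. HFoleic, of which the last 2 were not called. Exons and UTRs were not annotated on this build here.

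The ubiquitous isoform of the same position, Atp6v0d1, moved far less, by 0.24 ± 0.10 on the log2 scale for HFoleic vs. Ref, which was not called (adjusted p = 0.0669). Among the isoforms of the a subunit, which forms the proton path with the ring of c subunits, Atp6v0a1 rose by 0.85 ± 0.21 (adjusted p = 0.00469) and Tcirg1, the a3 isoform known from osteoclasts and macrophages and counted below among the other pump genes, rose by 1.53 ± 0.35 (adjusted p = 0.00282). For Atp6v0a2 the value was 0.15 and was not called. The ring subunits Atp6v0c (0.41) and Atp6v0b (0.37) and the small subunit Atp6v0e (0.42) were called higher. Other probes went against the call for Atp6v0a1, where 1 of 3 gave 0.18 (not called), and for Atp6v0e, where both others gave -0.24 and -0.01 (not called).

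In the V1 sector, which binds and splits ATP, the catalytic subunit Atp6v1a rose by 0.81 ± 0.19 on the log2 scale in HFoleic vs. Ref (adjusted p = 0.00351) and the B subunit Atp6v1b2 by 0.89 ± 0.23 (adjusted p = 0.00702). Atp6v1c1 (0.48), Atp6v1e1 (0.35), Atp6v1f (0.28) and the regulatory subunit Atp6v1h (0.22, adjusted p = 0.0331) were called higher as well. Atp6v1d (-0.05) and Atp6v1g1 (0.09), both parts of the stalks of the pump, were not called. The second probe of Atp6v1b2 gave 0.49 and those of Atp6v1h 0.21 and -0.04, none called. The accessory protein Atp6ap1, which travels with the pump, rose by 0.31 (adjusted p = 0.0116), and for Atp6ap2, the prorenin receptor, the value was 0.16 (not called). The call of Atp6v1h was lost under 12 of 33 alternative settings.

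Cathepsins are the main proteases of the lysosome, and Ctss and Ctsk led them. Ctss, an elastin-cleaving protease of antigen-presenting cells, had levels of 12.41, 12.92 and 13.46 (lowest, median, highest) in Ref, 14.78, 16.07 and 16.62 in HFoleic and 13.03, 13.97 and 16.81 in HFepa. Its levels in HFoleic and Ref mice did not overlap, and the highest HFepa mouse was above all HFoleic mice. Ctss was 8.19-fold higher in HFoleic vs. Ref (log2 fold change 3.03 ± 0.54, adjusted p = 0.000726). The log2 fold change was 1.52 ± 0.51 in HFepa vs. Ref (adjusted p = 0.103) and -1.52 ± 0.51 in HFepa vs. HFoleic (adjusted p = 0.133, and -1.86 and called without HFepa mouse 1).

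Ctsk, the collagen-degrading protease of osteoclasts, had levels of 10.20, 10.41 and 10.88 in Ref, 12.06, 13.34 and 14.10 in HFoleic and 10.41, 11.45 and 14.20 in HFepa. All HFoleic mice were again above all Ref mice, and the HFepa mice covered nearly the whole span of both groups. Ctsk was 6.38-fold higher in HFoleic vs. Ref (log2 fold change 2.67 ± 0.53, adjusted p = 0.00129). The log2 fold change was 1.30 ± 0.49 in HFepa vs. Ref (adjusted p = 0.141) and -1.37 ± 0.49 in HFepa vs. HFoleic (adjusted p = 0.145, and -1.71 and called without HFepa mouse 1).

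The other cathepsins that rose in HFoleic vs. Ref did so by 0.69 to 0.98 on the log2 scale. They were Ctsl (0.98) and Ctsb (0.70), broadly expressed cysteine proteases, Ctsz (0.90) and Ctsh (0.83), which trim proteins from their ends, and Ctsd (0.69), the main aspartic protease. Ctsa, which shields Neu1 and Glb1 in a complex, had a log2 fold change of 0.01 with its brightest probe (not called) and 0.48 with a second probe that was called higher (adjusted p = 0.00222).

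Ctsc and Ctsf had the lowest fold changes of the 45 genes. Ctsc, which activates the granule proteases of white blood cells, had levels of 11.78, 12.17 and 12.46 in Ref, 11.75, 11.89 and 12.32 in HFoleic and 11.35, 11.72 and 12.17 in HFepa. The 3 groups overlapped. Its log2 fold change was -0.21 ± 0.14 in HFoleic vs. Ref (adjusted p = 0.267) and -0.37 ± 0.13 in HFepa vs. Ref (adjusted p = 0.111), and 1 of its 2 other probes was called lower in HFepa vs. Ref (-0.65, adjusted p = 0.0436). Ctsf, a cysteine protease, had levels of 11.17, 11.37 and 11.45 in Ref, 10.85, 11.15 and 11.28 in HFoleic and 10.89, 11.31 and 11.46 in HFepa, with all groups overlapping. The log2 fold change of Ctsf in HFoleic vs. Ref was -0.21 ± 0.09 (adjusted p = 0.0845).

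Among the other hydrolases the largest changes were those of Lipa and Gusb. Lipa, lysosomal acid lipase, which frees cholesterol and fatty acids from lipids taken up by the cell, had levels of 10.48, 10.63 and 10.79 in Ref, 11.23, 12.19 and 12.85 in HFoleic and 10.53, 11.08 and 13.02 in HFepa. HFoleic and Ref mice did not overlap, and the highest HFepa mouse was above every HFoleic mouse. Lipa was 2.84-fold higher in HFoleic vs. Ref (log2 fold change 1.51 ± 0.37, adjusted p = 0.00447). Its log2 fold change was 0.73 ± 0.34 in HFepa vs. Ref (adjusted p = 0.233) and -0.78 ± 0.34 in HFepa vs. HFoleic (adjusted p = 0.206, and -1.02 and called without HFepa mouse 1).

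Gusb, the beta-glucuronidase that cleaves glycosaminoglycans, had levels of 11.34, 11.61 and 11.87 in Ref, 12.40, 13.15 and 13.43 in HFoleic and 11.58, 12.09 and 13.62 in HFepa. The ranges of HFoleic and Ref lay apart, and 6 of the 8 HFepa mice lay below every HFoleic mouse. Gusb was 2.71-fold higher in HFoleic vs. Ref (log2 fold change 1.44 ± 0.29, adjusted p = 0.00139). In HFepa vs. Ref the value was 0.67 ± 0.27 (adjusted p = 0.163), and in HFepa vs. HFoleic it was -0.77 ± 0.27 (adjusted p = 0.141, and -0.96 and called without HFepa mouse 1).

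The other 7 hydrolase genes called higher spanned 0.45 to 0.98 on the log2 scale. Psap (0.98) is the precursor of the saposins that help enzymes reach sphingolipids, and Hexa (0.88), Man2b1 (0.76) and Glb1 (0.57) remove sugars from gangliosides and glycoproteins. Grn (0.52), whose product progranulin is taken to lysosomes, Tpp1 (0.45), a peptidase, and Asah1 (0.45), the acid ceramidase, completed the group. For Grn a bright second probe gave -0.04 ± 0.40 and was not called, and 2 of the 5 other probes of Glb1 gave 0.11 and 0.13 and were not called. Gaa, which degrades glycogen in the lysosome, had a log2 fold change of 0.11 (not called). Neu1, the lysosomal sialidase, had levels of 12.99, 13.18 and 13.50 in Ref, 13.00, 13.01 and 13.04 in HFoleic and 12.94, 13.15 and 13.26 in HFepa, which overlapped, and its log2 fold change in HFoleic vs. Ref was -0.18 ± 0.07 (adjusted p = 0.0675).

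Of the membrane proteins, Lamp1, a heavily glycosylated protein of the lysosomal coat, rose in HFoleic vs. Ref by 0.48 ± 0.11 (adjusted p = 0.0025). It had the smallest adjusted p of the 45 genes in HFepa vs. HFoleic, where its log2 fold change was -0.37 ± 0.10. Scarb2, a membrane glycoprotein of the lysosome, was called higher by 0.16 with an adjusted p of 0.0469, a call lost under 17 of 33 alternative settings. Lamp2 (0.13), which also serves autophagy, and the calcium channel Mcoln1 (-0.02) were not called.

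The transcription factors that are known to drive lysosomal genes did not pass the test in any comparison. Tfeb had levels of 8.43, 8.50 and 8.71 in Ref, 8.20, 8.39 and 8.48 in HFoleic and 8.03, 8.39 and 8.61 in HFepa. The groups overlapped, and the log2 fold change in HFoleic vs. Ref was -0.17 ± 0.08 (adjusted p = 0.128). This brightest probe of Tfeb matches a predicted transcript, and the other 3 probes, which match curated transcripts, gave 0.18 to 0.33 with no call, so the direction of Tfeb differed between probes. Tfe3 had levels of 12.74, 12.86 and 13.02 in Ref, 12.84, 12.98 and 13.15 in HFoleic and 12.59, 12.84 and 13.24 in HFepa. Its value for HFoleic vs. Ref was 0.12 ± 0.10 (log2, adjusted p = 0.387). Mitf had levels of 11.01, 11.31 and 11.60 in Ref, 11.29, 11.52 and 11.94 in HFoleic and 10.91, 11.30 and 12.01 in HFepa, with a log2 fold change of 0.31 ± 0.17 (adjusted p = 0.184). The ranges of all 3 groups overlapped for each factor, and all 4 probes of Mitf gave values of 0.21 to 0.44. Transcript levels do not show the phosphorylation and nuclear entry by which these factors are known to be controlled.

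**Figure D2:**
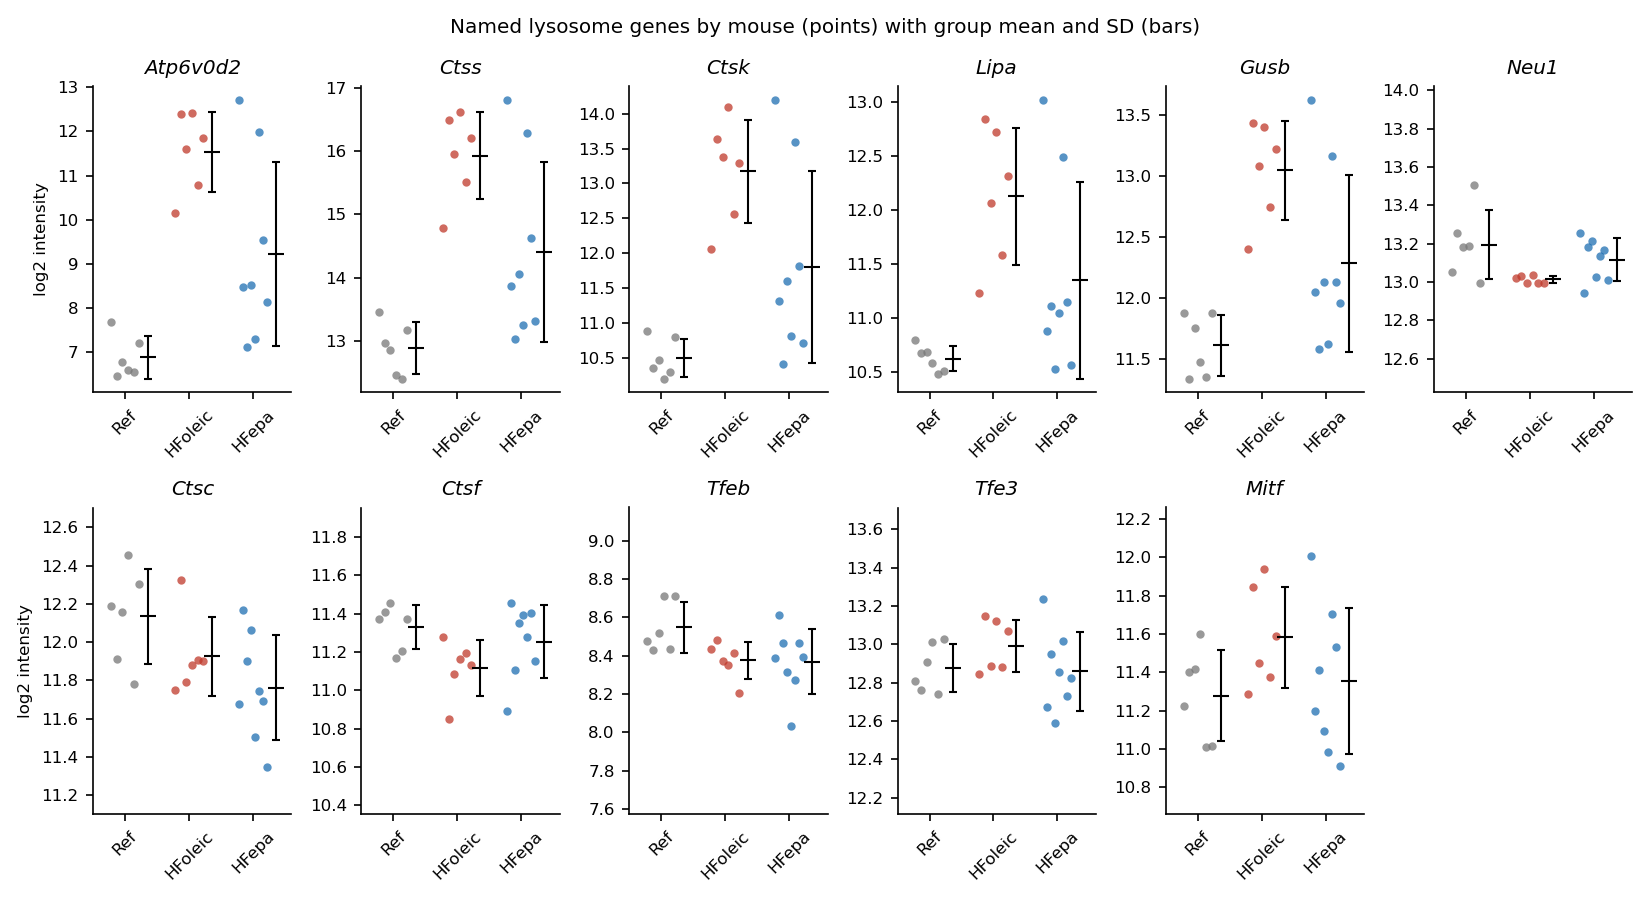
Log2 intensity (y axis, own scale per gene) of the 5 genes with the largest and the 3 with the lowest log2 fold change in HFoleic vs. Ref and of the 3 transcription factors, with 1 point per mouse and the group mean and SD beside the points. For the 5 genes with the largest change all HFoleic mice lie above all Ref mice and the HFepa mice are spread, whereas the 3 groups overlap for the other 6 genes.

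The spread within the HFepa group was seen in many of the 45 genes at once, but not in every one, and Lamp2 was an exception. The median over the 45 genes of the level minus the Ref mean lay between -0.12 and 0.15 in Ref mice and between 0.21 and 0.58 in HFoleic mice. In the HFepa group it was 0.64 in mouse 1 and 0.43 in mouse 6, and between -0.02 and 0.18 in the other 6 mice. Thus 2 of 8 HFepa mice lay in the range of the HFoleic group or above it, and 6 lay below every HFoleic mouse. Over all 45 genes, 35 in HFepa mouse 1 and 32 in mouse 6 were above the highest Ref mouse, beside 22% and 19.8% of all genes tested. The counts in the other HFepa mice were 22 (mouse 7), 18 (mouse 4), 17 (mouse 2), 9 (mice 5 and 8) and 6 (mouse 3), beside 12.1% to 19.1% of all genes. In mice 3, 5 and 8 the shares of the 45 genes, 13.3%, 20% and 20%, were near those of all genes, 15.2%, 17.2% and 19.1%. HFoleic mice had 23 (mouse 1) to 34 (mouse 4) such genes, beside 16.4% to 24.1% of all genes. No label sets mice 1 and 6 apart from the rest of their group, and they were kept in all comparisons. They lie on slides 1 and 2.

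The high lysosomal levels went with high levels of macrophage markers in the same mice. The mean level of 12 macrophage markers was 10.70 to 11.18 in Ref mice, 11.42 to 12.44 in HFoleic mice and 10.59 to 12.40 in HFepa mice. In HFoleic vs. Ref, 9 of the 12 genes were called higher, beside 15.2% of all genes, and 2 had lower values that were not called. In HFepa vs. Ref 0 of the 12 were called. At an unadjusted p under 0.05 in limma, 2 were higher and 1 lower there, beside 10% and 11.5% of all genes. HFepa mice 1 and 6 had the highest values of their group, 12.40 and 12.05, with 10.59 to 11.30 in the other 6. A list of 8 markers of lipid-associated macrophages, the cells known to take up lipid from dying fat cells, ranged from 9.84 to 10.88 in Ref, 12.34 to 13.90 in HFoleic and 10.46 to 14.28 in HFepa, with 14.28 and 13.52 in HFepa mice 1 and 6. All 8 of its genes were called higher in HFoleic vs. Ref, beside 15.2% of all genes. Among them were Trem2 (4.22), a lipid receptor, Gpnmb (4.89), a glycoprotein of lysosome-rich cells, and Mmp12 (5.24), the macrophage elastase. The mean level of this list was 2.95 higher in HFoleic than in Ref and that of the macrophage list 0.97 higher (two-sided exact permutation test, p adjusted over 13 lists and 3 comparisons = 0.0211 for both). Before adjustment both p were 0.00216, the smallest this test can give with 6 against 6 mice. Equal p here and below therefore do not rank the lists. The part of macrophages in the lysosomal result was not tested.

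**Figure D3:**
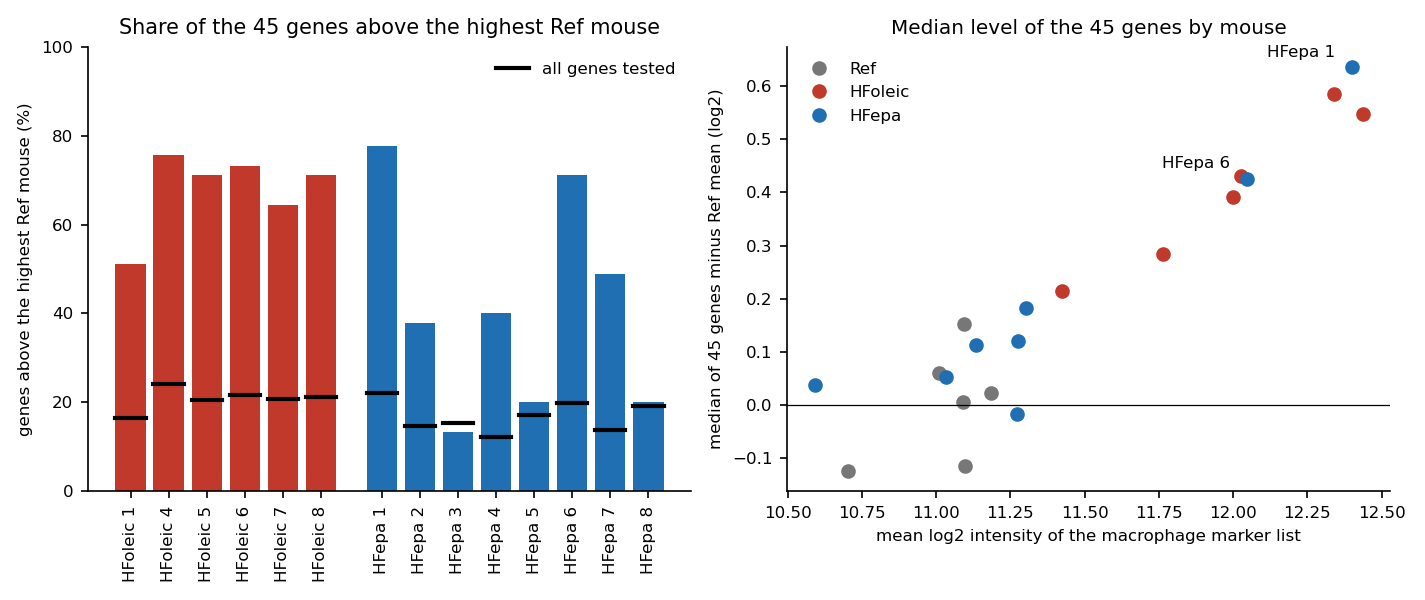
Left, percent of the 45 genes above the highest Ref mouse (y axis), with 1 bar per HFoleic or HFepa mouse and a black line for all genes tested in that mouse. Right, median log2 level of the 45 genes relative to the Ref mean (y axis) against the mean log2 level of the macrophage markers (x axis), with 1 point per mouse, where HFepa mouse 6 lies among the HFoleic mice and HFepa mouse 1 lies above them on the y axis.

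Other marker lists moved less or in part. Osteoclast markers were searched for because Atp6v0d2, Ctsk and Tcirg1 are known from those cells. The list mean was 0.59 higher in HFoleic than in Ref (same test, adjusted p = 0.0211). Of its 7 genes, 3 were called higher (Dcstamp, 2.59, Tnfrsf11a, 1.02, and Ocstamp, 0.72), beside 15.2% of all genes. The median log2 fold change of the 7 genes was 0.04, and 2 of them had lower values in HFoleic. The list was chosen with earlier results of these data known, so its p is a description. Its defining receptors Calcr and Oscar had fold changes of 0.02 and -0.01 and were not called, and Calcr was well above background on 7 arrays. The fibroblast and progenitor list was 0.68 higher (same test, adjusted p = 0.0211). Lum, Col1a1, Col3a1 and Mfap5 were called higher among its 8 genes (50%, beside 15.2% of all genes). Pdgfra, Dcn, Dpp4 and Pi16 were not called, and 2 of the 8 genes had lower values in HFoleic. Adipocyte markers were bright on every array, at 16.88 to 17.14 in Ref and 16.48 to 17.02 in HFoleic mice, a difference of -0.30 (same test, adjusted p = 0.0686). Lipe and Cfd were called lower among 8 genes (25%, beside 16.7% of all genes). The endothelial, mesothelial, T cell, B cell, neutrophil, epididymis, testis and liver lists passed no test in any comparison, and no list passed it in a comparison with HFepa. Single genes of these lists were called in HFoleic vs. Ref. These were 1 of 5 neutrophil genes (2.46) and 1 of 6 T cell genes, both higher, and 1 of 4 testis genes, lower. Of all genes 15.2% were called higher and 16.7% lower. A test of group means does not show single mice. The epididymis list (2 of 6 genes tested) ranged from 5.18 to 8.36, in HFepa mouse 2, and was 8.11 in Ref mouse 3. The testis list (4 of 6 tested) ranged from 5.86 to 9.06, in HFoleic mouse 5. The liver list ranged from 7.95 to 12.84, in HFoleic mouse 6. Without HFepa mouse 1, 10 of the 39 tests passed in place of 4. The part of these lists in the lysosomal result was not tested either.

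The comparisons were also read within each slide. HFoleic had a higher mean than Ref for 40, 36 and 39 of the 45 genes on slides 1, 2 and 3, and for 46.8%, 43.2% and 45.6% of all genes. HFepa had a higher mean than Ref for 40, 34 and 32 of the 45, and for 51.7%, 41.8% and 48.6% of all genes. HFepa had a higher mean than HFoleic for 5, 4 and 6 of the 45, and for 53.6%, 51.2% and 52.1% of all genes. Slide 2 holds 1 HFoleic mouse.

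Other genes of the lysosomal pathway were read from 7 lists with 124 genes, of which 120 were tested (Atp6v1b1, Atp6v1g3, Rragb and Stfa1 were not). In HFoleic vs. Ref, 46 of the 120 were called higher and 7 lower, so 44.2% were called, with a median log2 fold change of 0.17, beside 31.8% of all genes called, 15.2% higher and 16.7% lower. For HFepa vs. Ref, 2 were called, both lower (1.67%, beside 2.46% of all genes). For HFepa vs. HFoleic limma called 0, where 3 were higher and 30 lower at an unadjusted p under 0.05, beside 10.8% and 10% of all genes. Without HFepa mouse 1, 17 of the 120 were called lower in HFepa vs. HFoleic, beside 4.62% of all genes, and without HFoleic mouse 1, 4 were, beside 1.92%. In HFepa vs. Ref the count was 5 without HFepa mouse 3 (3 higher and 2 lower), beside 3.41% of all genes higher and 3.62% lower. It was 4 without Ref mouse 7 (2 higher and 2 lower), beside 2.42% and 2.29% of all genes, and 0 or 1 without most other mice.

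Over the 7 lists, the share of genes called in HFoleic vs. Ref ranged from 28.6% for the other pump genes to 60% for the other membrane and transport proteins. Of all genes 31.8% were called, 15.2% higher and 16.7% lower, and differences between lists were not tested. Among 25 other membrane and transport proteins 14 were called higher and 1 lower, led by Cd68 (2.41), a macrophage glycoprotein of late endosomes, Slc36a1 (0.68), an amino acid exporter, and Ostm1 (0.55), the partner of the chloride exchanger Clcn7. Of 32 other hydrolases, 15 were called higher and 2 lower. Dpp7, a dipeptidase, rose by 0.54, and Ctso fell by 0.35 (adjusted p = 0.000578). Ctso also fell by 0.24 in HFepa vs. Ref (adjusted p = 0.0314), where it was 1 of the 2 genes called. Of 14 other pump genes, 3 were called higher, namely Tcirg1, the assembly factor Vma21 (0.70) and Wdr7 (0.56), which binds the pump, and 1 lower (Dmxl2, -0.27). This total of 28.6% was below the 31.8% of all genes, and the median log2 fold change of the 14 genes was 0.02.

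Genes that deliver enzymes to the lysosome or control Tfeb were called higher in part, beside 15.2% of all genes. Of 10 genes of lysosomal targeting, 4 were called higher and 0 lower, among them Gnptab (0.64) and Nagpa (0.35), which make the mannose 6-phosphate tag, and Gga2 (0.44), an adaptor that sorts the tagged enzymes. A list of 14 genes was for the control of Tfeb or the growth kinase mTORC1 on the lysosome, and also held the related factor Tfec. In it 5 were called higher and 0 lower, among them Fnip2 (0.86), Lamtor1 (0.49) and Rptor (0.29). The cystatins, inhibitors of cathepsins, had 2 of 6 called higher, Cstb (1.19) and Cst3 (0.26), and for Stfa3 the value was -0.24 (not called). The total for the cystatins, 33.3%, was near the 31.8% of all genes. Of 19 autophagy genes, 3 were called higher and 3 lower, a total of 31.6% beside 31.8% of all genes. Vps18 (0.46), Uvrag (0.34) and Atg9b (0.39) rose. Ulk1, the kinase that starts autophagy, fell by 0.31, Map1lc3b, a protein of the autophagosome membrane, by 0.37 and Atg16l1 by 0.23. Ulk1 also fell by 0.28 in HFepa vs. Ref (adjusted p = 0.0492).

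**Figure D4:**
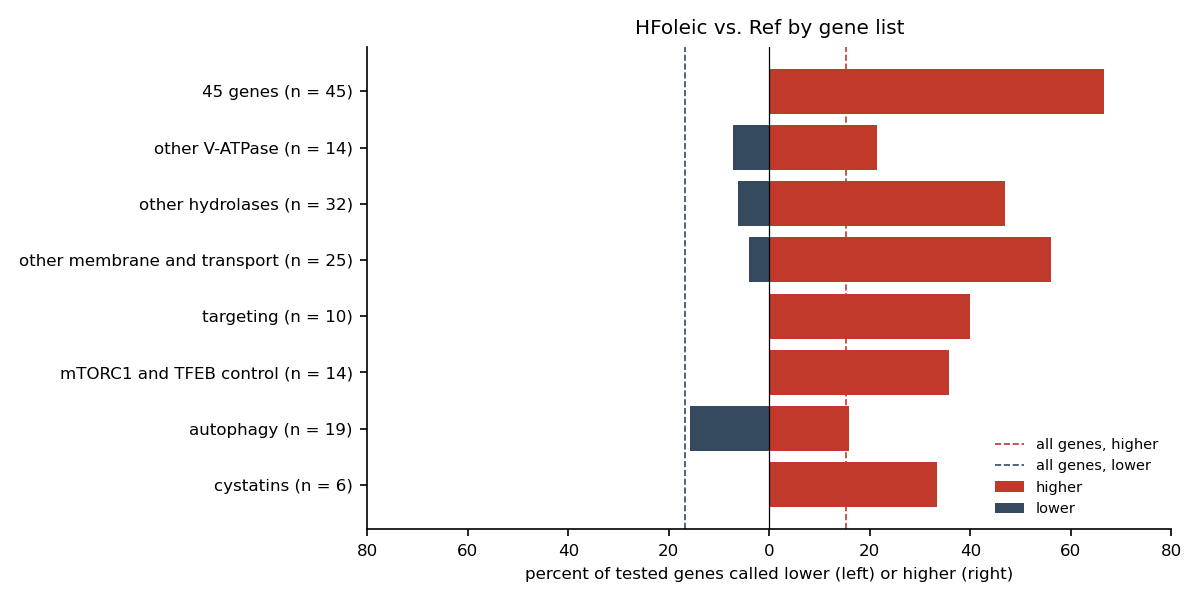
Percent of tested genes called higher (right of 0) or lower (left of 0) in HFoleic vs. Ref (x axis) for the 45 genes and the 7 lists of other lysosomal genes (y axis), with dashed lines for all genes at 15.2% and 16.7%. The 45 genes have the largest share called higher, 66.7%, and the autophagy list has as many genes called lower as higher.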

How the data were processed

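RNA of 20 mice was hybridized to arrays of 1 colour. The authors extracted a linear intensity for each spot from the scans with Agilent Feature Extraction 10.10.1.1, and these intensities were deposited without normalization. Their table of log2 values, deposited after a filter and quantile normalization by the authors, was used here as an alternative (r with the values used here of 0.99998 or more on each array).

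Here control spots were left out (59305 of 62976 remained), spots marked as non-uniform or as outliers were set missing, and log2 median intensities were quantile normalized in R 4.3.3. limma 3.58.1 fitted 1 mean per group to all 20 arrays, as in the study's methods. Gene names are those of the files. Tested on simulated data, the fit recovered 186 of 200 probes changed by log2 1 in HFoleic vs. Ref, 179 in HFepa vs. Ref and 185 in HFepa vs. HFoleic. The simulation mixed deviations from the group means over all arrays, so a wider spread in the HFepa group was not kept. Changes smaller than log2 1 were not simulated. The 45 genes and all lists were chosen with earlier results of these data known. Of the other lists the 3 genes with the smallest p were named, except 1 that is not reported here, and others called lower or in autophagy were named after their values were seen. Labels give 1 array per mouse. Figures used matplotlib 3.10.9.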

Additional observations from a re-analysis of the deposited data

Results flagged for a closer look

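Of 135 gene and group combinations (45 genes in 3 groups), 5 had 1 mouse farther from the others than the 95% limit of Dixon's test allows, and chance gives about 1 in 20. Scarb2 was at 12.42 in Ref mouse 5, below the other Ref mice. Ctsa was at 14.42 in HFoleic mouse 5 and Glb1 at 12.32 in HFoleic mouse 1, each the lowest of the group. Ctsc was at 12.32 in HFoleic mouse 4, the highest of its group. Atp6v1g1 was at 14.27 in HFepa mouse 1, the highest of its group. The 5 values lie in 5 different mice, and levels are log2 intensities.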

How the results depend on the processing

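No call among the 45 genes reversed under any alternative, and the fold changes that changed sign were called neither before nor after. In HFoleic vs. Ref, 28 to 35 of the 45 genes were called under the alternatives other than leaving out a mouse and the replicate block. Of all genes, 14.2% to 19% were called higher and 15% to 23% lower under these alternatives. With the replicate number as a block 20 were called, and Atp6v0a1, Atp6v0c, Atp6v0b, Atp6v1c1, Atp6v1h, Atp6ap1, Ctsd, Grn, Asah1 and Scarb2 lost their call, while the other lysosomal pathway genes went from 53 to 35. Of all genes, 9.61% were called higher and 11.4% lower with that block. The replicate numbers were not taken as a pairing, since 16 same-numbered pairs of mice had correlations of -0.59 to 0.56 (median -0.08, 5 over 0.1) and 2 of 20 arrays correlated best with their own number. Array weights gave 33 higher and 2 lower (Ctsf, -0.25, and Neu1, -0.16), beside 19% and 23% of all genes. In HFepa vs. Ref, slide as a block gave 1 call (Ctsc, -0.38), beside 1.12% of all genes called lower. In HFepa vs. HFoleic, slide as a block gave 3 calls, all lower (Atp6v1f, Atp6ap1 and Lamp1), and array weights 22, all lower, when 1297 and 4575 of all probes were called in place of 1. For the other pathway genes, HFepa vs. Ref gave 2 calls, but 1 with the processed signal minus its 75th percentile, median centring, the authors' log2 table, no filter, marked spots kept or the mean of all probes, and 0 with the replicate block or with a fit of only the 2 groups compared, while normexp gave 3 (1 higher) and array weights 1 higher and 1 lower. Of all genes, 0.0429% to 1.56% were called higher and 0.0234% to 2.44% lower in HFepa vs. Ref under these settings. For the other pathway genes, HFepa vs. HFoleic gave 0 calls, but 3 with slide as a block and 20 with array weights. Of all genes, 1.69% were called higher and 1.48% lower in that comparison with slide as a block. With array weights these shares were 5.44% and 6.69%. Leaving out each mouse in turn gave 26 to 31 calls among the 45 genes in HFoleic vs. Ref, 0 to 3 in HFepa vs. Ref and 0 to 18 in HFepa vs. HFoleic, and 44 to 57, 0 to 5 and 0 to 17 among the other pathway genes. In HFoleic vs. Ref these fits called 12.6% to 16.1% of all genes higher and 13.3% to 18.4% lower. In HFepa vs. Ref they called 0.152% to 3.41% of all genes higher and 0.226% to 3.62% lower. In HFepa vs. HFoleic they called 0% to 3.1% higher and 0% to 4.62% lower. Of the 39 marker list tests, 4 to 10 passed when a mouse was left out, 5 with the list median and 6 with median centring. The cause of these differences was not tested. The number of arrays and, for dim probes, the signal over background limit the precision.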
